A study of Homo sapiens with 4 samples.

Results

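The genes examined here are 44 markers and regulators of epithelial or mesenchymal identity: cadherins, tight junction and desmosome genes, keratins, luminal breast genes, and mesenchymal transcription factors and matrix genes. They were chosen by name, with earlier results of these arrays known. For each, the probe set annotated to that gene alone was read, and the brighter on average where there were several, with no filter on intensity. This gave values for 41 of the 44, among 18417 genes read the same way. OCLN was left out because its probe set is annotated to a second gene as well, and ESRP1 and KRT17 were not analysed here.

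Epithelial cells hold to their neighbours through E-cadherin, claudins and desmosomes anchored on keratin filaments. In an epithelial to mesenchymal transition, repressors such as Snail, ZEB1 and ZEB2 bind E-box sequences at genes of this kind and switch them off, while N-cadherin, vimentin, fibronectin and matrix genes come on. Basal-like breast cancer lines often carry part of the mesenchymal programme, and Snail has been described as a repressor of FBP1 in such cells.

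The arrays came from MDA-MB231 and Hs578T, established human lines that the labels both class as basal-like breast cancer. Each line was represented by 1 array of control cells and 1 of cells expressing FBP1, the gluconeogenic enzyme fructose-1,6-bisphosphatase, after selection of stable clones. The labels give no further detail of the control cells or of how many clones were used, and cells were taken in log-phase growth in medium with serum. Values are log2 expression per probe set, so a difference of 1 is 2-fold. Levels are compared only within a gene, apart from the place of a gene among all genes of its array and a leukocyte marker sum. That sum adds values of different probe sets and is no measure of amount. With 1 array per line and construct there is no replicate of any group.

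Median values over all 33297 probe sets were 7.83 to 7.86 on the 4 arrays. FBP1, the introduced gene, read 9.83 and 13.07 in the control and FBP1 arrays of MDA-MB231 and 6.35 and 13.35 in those of Hs578T, higher in both FBP1 arrays, which the labels say carry it. A level below 6.16, which is the 25th percentile over the mean levels of all probe sets, is called dim here; the table gives no measure of whether a signal is above background. Among leukocyte markers, PTPRC, CD3E and MS4A1 were dim on all 4 arrays, at 4.52 to 6.12, and LYZ read 5.39 to 6.28. CD3D and ITGAM read 6.69 to 6.91, CD14 7.41 to 8.30, NKG7 8.11 to 8.29 and CD68, a lysosomal protein of macrophages, 10.99 to 11.60. Of 9 leukocyte markers measured, of 10 listed, 2 (22.2%) were called between the lines, a share below the 36.0% of all genes. These were CD14 and LYZ, both higher in MDA-MB231. The summed linear level of the 9 was 3588 and 4057 in the control and FBP1 arrays of MDA-MB231 and 3211 and 2939 in those of Hs578T. CD68, the brightest of them, made up most of each sum.

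The first comparison was between the lines. MDA-MB231 was higher for E-cadherin, the simple-epithelial keratins KRT8 and KRT19, CLDN7, EPCAM and 4 of the 6 luminal genes of the list. E-cadherin itself lay in the lower part of all genes in both lines. Hs578T was higher for N-cadherin, K-cadherin, the twist factors and matrix genes. Vimentin and ZEB1 were not called. The limma fit over the 4 arrays, with terms for line and construct, called 29 of the 41 genes at adjusted p under 0.05, against 36.0% of all 18417 genes. Among the 26 epithelial genes 15 were called in favour of MDA-MB231 and 1 in favour of Hs578T, where 19.0% and 16.9% of all genes were called in these directions. Among the 15 mesenchymal genes 12 were higher in Hs578T and 1 in MDA-MB231. The median line difference, MDA-MB231 minus Hs578T, was 0.45 over the epithelial genes and −1.34 over the mesenchymal ones, beside −0.03 over all genes. These p-values rest on 1 residual degree of freedom per gene, which holds how far the FBP1 changes of the lines disagree. The larger part of the error, 5.09 degrees of freedom, comes from a variance prior shared by genes of like intensity. Neither part measures the spread of repeated cultures.

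**Figure D1:**
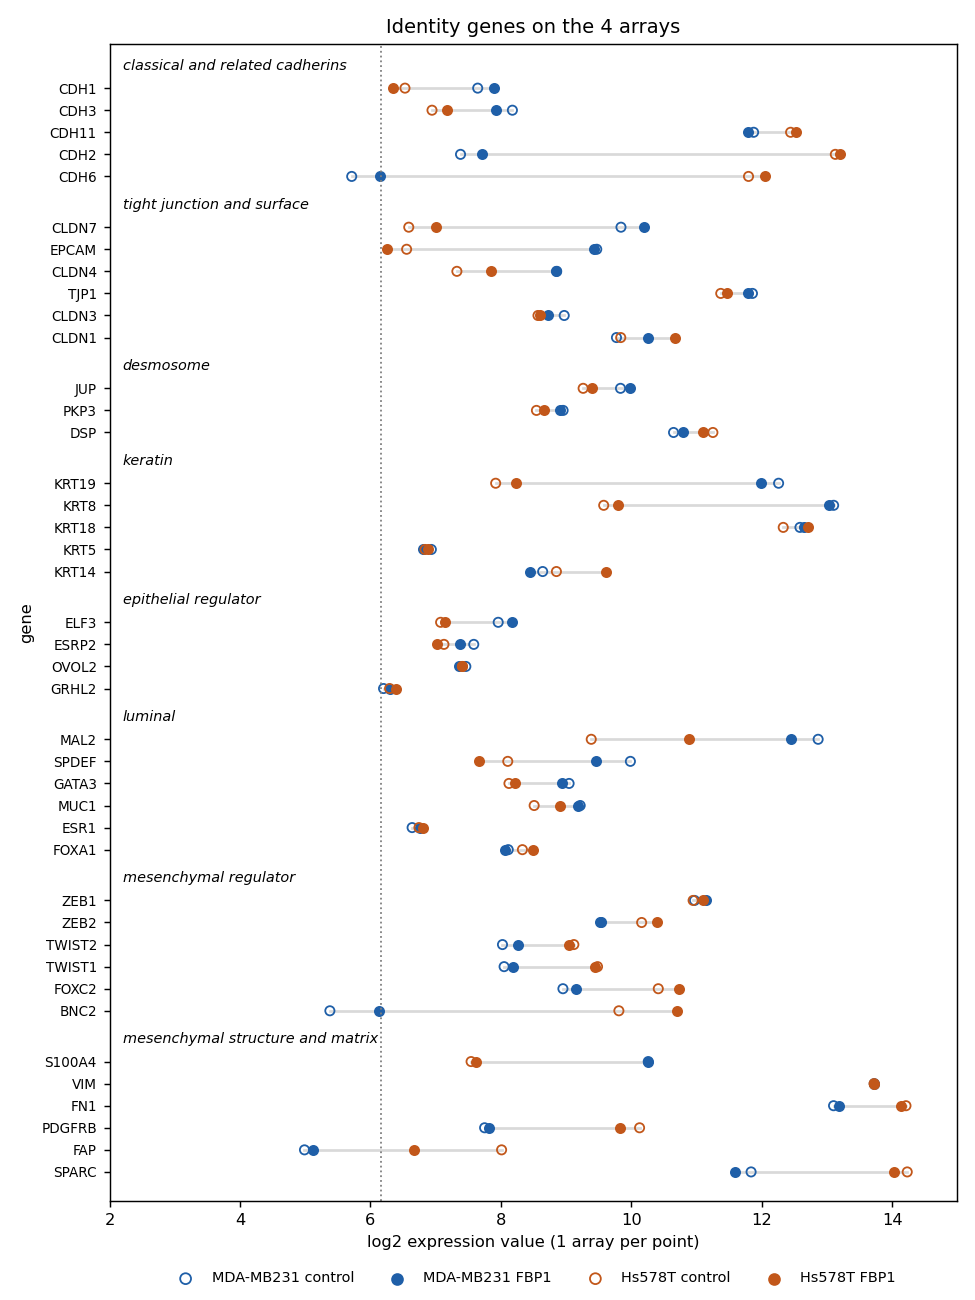
Log2 expression value (horizontal axis) of each of the 41 genes on the 4 arrays, 1 point per array, with genes grouped by role. Open points are control arrays and filled points FBP1 arrays, blue for MDA-MB231 and orange for Hs578T, and the dotted line marks the dim level of 6.16. CDH2, CDH6, BNC2 and SPARC lie far to the right in Hs578T, KRT8, KRT19, CLDN7 and EPCAM in MDA-MB231, and the VIM points coincide.

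All 5 cadherins differed between the lines. CDH1 encodes E-cadherin, the adhesion molecule of epithelial sheets, and read 7.64 in the control and 7.90 in the FBP1 array of MDA-MB231, and 6.53 and 6.34 in those of Hs578T. Both MDA-MB231 arrays lay above both Hs578T arrays, with a fitted mean difference of 1.33 log2 (standard error 0.14, 2.52-fold, adjusted p = 0.000775). Among all genes of its array, CDH1 lay in the lower part in both lines. Its percentiles were 34.9 and 38.7 in MDA-MB231 and 18.2 and 15.5 in Hs578T. Leukocyte markers lay on both sides of this in MDA-MB231, with NKG7 at 43.6 and 42.2 and CD3D at 20.6 and 21.8. The place of CDH1 thus does not show whether its signal is above background. CDH3, the P-cadherin gene of basal epithelium, read 8.18 and 7.93 in MDA-MB231 and 6.94 and 7.17 in Hs578T, which is 1.99-fold higher in MDA-MB231 (adjusted p = 0.00283). CDH2 encodes N-cadherin, which replaces E-cadherin in many mesenchymal cells, and ran the other way at 7.38 and 7.70 against 13.13 and 13.20. Its difference of 5.62 log2 in favour of Hs578T (95% interval 5.35 to 5.88, adjusted p = 4e-06) came to 49.1-fold. In MDA-MB231 CDH2 lay at percentiles 30.7 and 35.7, so the exact size is uncertain.

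CDH6, the K-cadherin gene, had the widest gap of all 41 genes. It read 5.71 in the control and 6.15 in the FBP1 array of MDA-MB231, both under the dim level, and 11.80 and 12.04 in Hs578T. The fitted difference was 5.99 log2 in favour of Hs578T (adjusted p = 4e-06), and since the MDA-MB231 arrays were dim its exact size is uncertain. CDH11, a mesenchymal cadherin found on osteoblasts and fibroblasts, read far above the dim level in both lines, at 11.87 and 11.78 in MDA-MB231 and 12.44 and 12.52 in Hs578T. The lines thus shared this cadherin within 1.57-fold, with Hs578T the higher (adjusted p = 0.00174).

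Among the tight junction and surface genes, 4 of the 6 measured were higher in MDA-MB231 with 0 called in favour of Hs578T. CLDN7, a claudin of epithelial tight junctions, read 9.84 and 10.19 in the control and FBP1 arrays of MDA-MB231 and 6.59 and 7.01 in Hs578T. That is 3.22 log2 or 9.3-fold (standard error 0.10, adjusted p = 8.88e-06). EPCAM, an epithelial surface adhesion molecule, read 9.47 and 9.43 against 6.55 and 6.26, so the Hs578T arrays sat just above the dim level and MDA-MB231 was 8.25-fold higher (adjusted p = 1.59e-05). A second EPCAM probe set gave a line difference of 4.00 log2, against 3.04 for the one used.

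CLDN4 was 2.4-fold higher in MDA-MB231, at 8.86 and 8.85 against 7.33 and 7.85 (adjusted p = 0.00133). TJP1, the ZO-1 scaffold under tight junctions, read 11.86 and 11.79 in MDA-MB231 and 11.37 and 11.47 in Hs578T, 0.40 log2 higher in the former (adjusted p = 0.0152). CLDN3 and CLDN1 were not called: CLDN3 differed by 0.27 log2 (95% interval −0.02 to 0.55), and CLDN1 overlapped between the lines, at 9.77 and 10.26 against 9.84 and 10.67. Of the 4 claudins, CLDN4 and CLDN7 were thus called.

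The 3 desmosome genes read above the dim level on all 4 arrays, and each differed by under 1.5-fold. JUP, plakoglobin, was higher in MDA-MB231 by 0.58 log2 (adjusted p = 0.00617), at 9.83 and 9.98 against 9.26 and 9.39. DSP, desmoplakin, was the 1 epithelial gene called higher in Hs578T, at 11.25 and 11.10 against 10.65 and 10.79 in MDA-MB231 (0.46 log2, adjusted p = 0.0192). PKP3, a plakophilin, differed by 0.33 log2 (95% interval 0.07 to 0.59, adjusted p = 0.056).

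Of the 5 measured keratins, KRT19 and KRT8 were called between the lines, and KRT18, KRT5 and KRT14 were not. KRT19, a simple-epithelial keratin, read 12.26 in the control and 11.99 in the FBP1 array of MDA-MB231, and 7.92 and 8.23 in Hs578T. This difference of 4.05 log2, or 16.6-fold, was the largest in favour of MDA-MB231 among the 41 genes (standard error 0.15, adjusted p = 1.54e-05). KRT8 followed at 13.10 and 13.02 against 9.58 and 9.80, which is 10.4-fold (adjusted p = 7.74e-06).

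KRT18 forms filaments together with KRT8, yet its levels overlapped between the lines. It read 12.59 and 12.65 in MDA-MB231 and 12.33 and 12.71 in Hs578T, a difference of 0.10 log2 (95% interval −0.13 to 0.33). A second KRT18 probe set gave 0.22. KRT5, a basal keratin, read 6.80 to 6.93 over the 4 arrays, with no direction between the lines. KRT14, its basal partner, read 8.64 and 8.45 in MDA-MB231 and 8.85 and 9.62 in Hs578T, and missed the threshold at 0.69 log2 in favour of Hs578T (adjusted p = 0.0537), with 0.21 between the control arrays and 1.17 between the FBP1 arrays. Keratin genes have similar family members and processed copies, so probes may bind more than the named gene.

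Of the luminal genes, 4 of 6 were higher in MDA-MB231. MAL2, a membrane protein of apical transport, read 12.86 and 12.44 in MDA-MB231 and 9.39 and 10.89 in Hs578T; the lines did not overlap, although the Hs578T arrays were far apart from each other (5.72-fold, 95% interval of the log2 difference 1.55 to 3.49, adjusted p = 0.0043). The gap was 3.48 log2 between the control arrays and 1.56 between the FBP1 arrays. SPDEF, an ETS factor of secretory and luminal epithelium, read 9.99 and 9.46 against 8.11 and 7.67 (3.56-fold, adjusted p = 7.85e-05). GATA3, a regulator of luminal fate, read 9.05 and 8.94 against 8.12 and 8.22 and was 1.77-fold higher (adjusted p = 0.00223).

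MUC1, an apical mucin, was 1.41-fold higher in MDA-MB231 (adjusted p = 0.0309), a call lost at adjusted p = 0.0736 when unnamed probe sets were fitted as well; its gap was 0.71 log2 between the control arrays and 0.28 between the FBP1 arrays. ESR1, the estrogen receptor, read 6.64 to 6.80 on the 4 arrays with the lines overlapping. FOXA1, its pioneer factor, differed by 0.33 log2 in favour of Hs578T and was not called (adjusted p = 0.0678). For ESR1 the interval of the line difference ran from −0.32 to 0.19. A separate list of 12 luminal markers, which shares genes with the main list, was also read. In it 5 genes (41.7%) were called higher in MDA-MB231, beside 19.0% of all genes. The 2 (16.7%) called higher in Hs578T were a share near the 16.9% of all genes. A further 5 were not called, and the median line difference was 0.095 log2. Those higher in Hs578T were XBP1 (0.69 log2, adjusted p = 0.00147) and PGR (0.58 log2, adjusted p = 0.00769). The mean level of PGR was dim.

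Of 4 epithelial regulators measured, 2 were higher in MDA-MB231. ELF3, an epithelial ETS factor, read 7.96 and 8.17 in MDA-MB231 and 7.08 and 7.14 in Hs578T (1.94-fold higher, adjusted p = 0.00111). ESRP2, which directs epithelial splicing, was 1.32-fold higher (adjusted p = 0.027; 0.0697 with unnamed probe sets fitted as well, which ends the call). GRHL2, a grainyhead factor that maintains epithelial junction genes, read 6.20 to 6.39 on the 4 arrays, near the dim level. OVOL2, a repressor of ZEB1, read 7.36 to 7.46, with an interval of the line difference from −0.26 to 0.26.

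Of the 6 mesenchymal regulators, 5 were higher in Hs578T and 1, ZEB1, was not called. ZEB1, a direct repressor of CDH1, read 10.97 and 11.14 in MDA-MB231 and 10.95 and 11.10 in Hs578T, so the arrays of the lines interleaved (difference 0.03 log2, 95% interval −0.18 to 0.25). Its relative ZEB2 was 1.68-fold higher in Hs578T, at 10.16 and 10.40 against 9.54 and 9.51 (adjusted p = 0.00352). A second ZEB2 probe set was dim in both lines. Both bounds of the ZEB1 interval lie within 1.5-fold. From the wider list SNAI1, which encodes Snail, was 1.84-fold higher in MDA-MB231 (adjusted p = 0.00132).

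TWIST1, a basic helix-loop-helix factor of mesoderm, read 8.05 and 8.19 in MDA-MB231 and 9.48 and 9.44 in Hs578T (2.54-fold higher, adjusted p = 0.000307). TWIST2 was 1.92-fold higher (adjusted p = 0.00188) and FOXC2, a forkhead factor of mesenchyme, 2.87-fold (adjusted p = 0.000147). BNC2, a zinc finger gene of mesenchymal cells, was dim in MDA-MB231 at 5.38 and 6.14 and read 9.81 and 10.71 in Hs578T. Its line difference was 4.50 log2 (standard error 0.11, adjusted p = 4.61e-06), with a size made uncertain by the dim arrays.

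VIM encodes vimentin, the intermediate filament of mesenchymal cells, and was not called. It read 13.72 and 13.71 in MDA-MB231 and 13.72 and 13.72 in Hs578T, and the 95% interval of the line difference ran from −0.14 to 0.13. FN1, fibronectin, was 2.04-fold higher in Hs578T, at 14.21 and 14.13 against 13.10 and 13.18 (adjusted p = 0.000115).

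SPARC, a matrix glycoprotein of mesenchymal and bone cells, read 11.84 and 11.60 in MDA-MB231 and 14.23 and 14.03 in Hs578T, 5.33-fold higher in the latter (standard error 0.07, adjusted p = 6.03e-06). PDGFRB, a growth factor receptor of fibroblasts and pericytes, was 4.58-fold higher there, at 10.13 and 9.83 against 7.75 and 7.81 (adjusted p = 8.04e-05). FAP, fibroblast activation protein, was dim in MDA-MB231 at 4.99 and 5.11 and read 8.01 and 6.67 in Hs578T, a difference of 2.29 log2 (adjusted p = 0.00252). Between the control arrays it was 3.02 and between the FBP1 arrays 1.55.

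S100A4, also named fibroblast-specific protein, ran against the other mesenchymal genes. It read 10.26 and 10.25 in MDA-MB231 and 7.54 and 7.62 in Hs578T, so that MDA-MB231 was 6.39-fold higher (standard error 0.10, adjusted p = 1.75e-05). It was the 1 mesenchymal gene of the list called in that direction. In RNA from whole cultures, fewer cells with a transcript and less transcript per cell cannot be told apart.

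**Figure D2:**
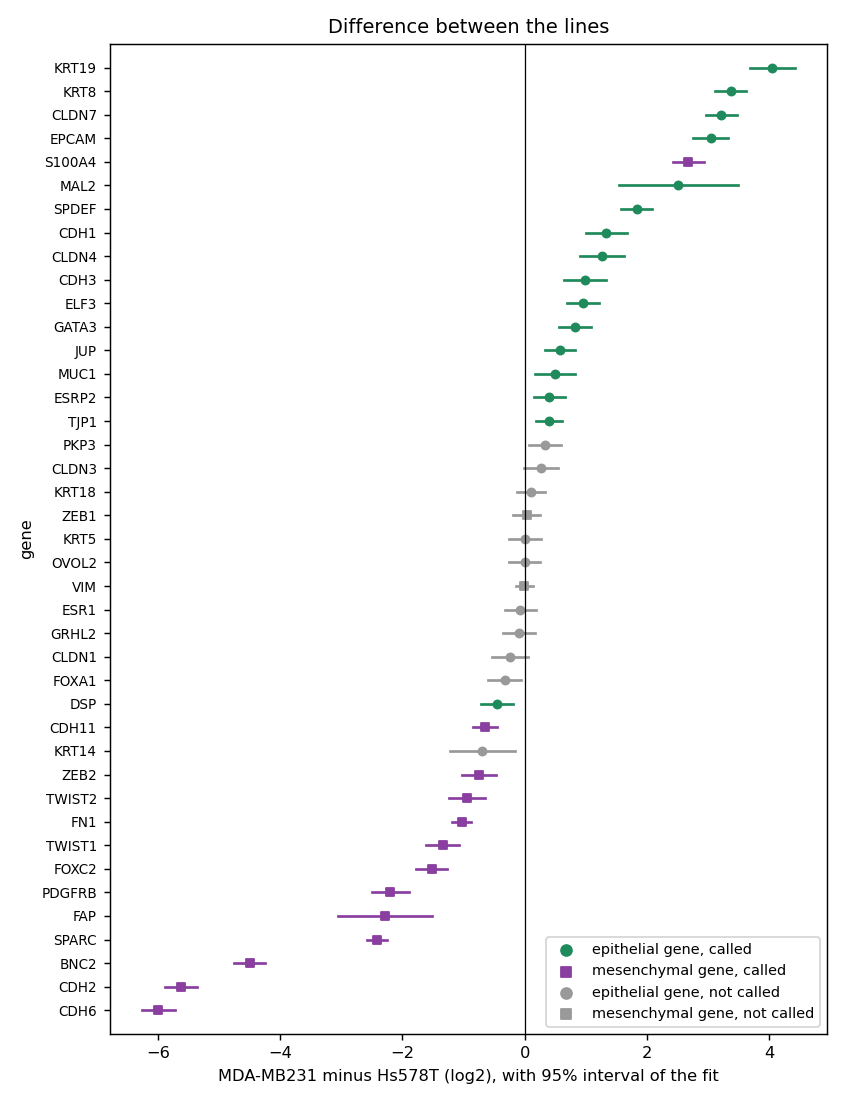
Line difference of each of the 41 genes (MDA-MB231 minus Hs578T, log2, horizontal axis) with its 95% interval from the limma fit over 4 arrays, sorted by size. Green circles are epithelial genes and purple squares mesenchymal genes where called at adjusted p under 0.05, and grey marks those not called. The 12 largest differences in favour of MDA-MB231 are epithelial genes apart from S100A4, and the 11 largest in favour of Hs578T are all mesenchymal genes.

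Of the called genes that the RefSeq promoter table holds, the upstream bases are shown for the 2 with the widest difference in favour of MDA-MB231 and the 1 with the widest in favour of Hs578T, because ZEB and Snail factors recognise the E-box letters CAGGTG, read as CACCTG on the other strand. The table, on GRCh38.p14, matched 26 of the 44 genes. The first 3 sequences below are the 250 bases before the outermost listed start, 5′ to 3′ in the direction of the gene. They are chr12:52926470-52926719 on the minus strand for KRT8, chr17:7263214-7263463 on the minus strand for CLDN7 and chr18:28177131-28177380 on the minus strand for CDH2. Capitals mark any letters CANNTG, the general E-box, of which CAGGTG and CACCTG are special cases.
KRT8: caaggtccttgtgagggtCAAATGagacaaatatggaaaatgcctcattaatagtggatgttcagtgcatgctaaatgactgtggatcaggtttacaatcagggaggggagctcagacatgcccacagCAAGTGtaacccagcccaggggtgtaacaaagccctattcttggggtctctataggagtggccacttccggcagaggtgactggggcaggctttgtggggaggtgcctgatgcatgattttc
CLDN7: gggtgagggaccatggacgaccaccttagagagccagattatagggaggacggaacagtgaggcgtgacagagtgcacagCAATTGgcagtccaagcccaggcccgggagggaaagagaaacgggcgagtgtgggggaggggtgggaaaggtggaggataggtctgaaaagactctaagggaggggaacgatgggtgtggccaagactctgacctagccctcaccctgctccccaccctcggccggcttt
CDH2: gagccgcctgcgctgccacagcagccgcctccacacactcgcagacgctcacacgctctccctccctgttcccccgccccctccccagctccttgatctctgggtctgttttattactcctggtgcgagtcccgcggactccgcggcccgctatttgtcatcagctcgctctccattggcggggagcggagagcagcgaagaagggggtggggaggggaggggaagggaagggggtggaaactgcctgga

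KRT8 held 2 general E-boxes here, starting 232 and 122 bases upstream, CLDN7 held 1 at 170 bases, and CDH2 had none. None of these windows held CAGGTG or CACCTG, which 17.5% of the 35116 listed promoters do in the 250 bases upstream; 61.8% hold CANNTG. A second CLDN7 start, 735 bases downstream, had 4 matches to CAGGTG or CACCTG, starting 174, 135, 20 and 9 bases before it. The 30 bases around them, with those letters in capitals, lie on the minus strand at chr17:7262632-7262661, chr17:7262593-7262622 and chr17:7262479-7262508.
CLDN7 site a: cttcctcctCACCTGggcaaggaggggtgg
CLDN7 site b: cttccggttCAGGTGagtgtcccttcggtg
CLDN7 sites c and d: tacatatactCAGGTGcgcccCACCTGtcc

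Of the 25 measured genes with a listed promoter, 11 had the letters CAGGTG or CACCTG upstream of at least 1 start, namely 8 of 15 epithelial and 3 of 10 mesenchymal genes, beside 3040 of 14239 measured genes in the table (21.3%). The programmes were not tested against each other or against all genes. Genes with several starts have more windows in which to match, and counted by start the share was 27.1% of 48. A match is a description of the letters and not of binding.

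Further genes of both programmes were read from wider lists. These too were drawn up with earlier results of these arrays known, so their counts are no independent check. Of 50 other epithelial genes measured, from 57 listed, 22 were called in favour of MDA-MB231 and 5 (10.0%) in favour of Hs578T, beside 19.0% and 16.9% of all genes in these directions. Their median line difference was 0.19 log2, beside −0.03 over all genes. EHF, an epithelial ETS factor, led at 10.56 and 10.83 in MDA-MB231 and 5.79 and 5.86 in Hs578T (adjusted p = 4.29e-06), and was dim in Hs578T. The simple-epithelial keratin gene KRT7 was 14-fold higher, the protease inhibitor gene SPINT2 9.47-fold, the tricellular junction gene MARVELD2 3.19 log2, with Hs578T dim, and the plakophilin gene PKP2 8.53-fold. Higher in Hs578T were TFAP2A (4.19-fold), an ectodermal transcription factor, the desmocollin gene DSC3 (1.80 log2, with MDA-MB231 dim), the lipid enzyme gene CDS1 (2.57-fold), GRHL1 (1.41-fold) and KRT15 (1.34-fold).

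Of 55 other mesenchymal genes measured, from 60 listed, 35 (63.6%) were higher in Hs578T, beside 16.9% of all genes, and 10 (18.2%) in MDA-MB231, a share near the 19.0% of all genes. Their median difference was −1.22 log2. POSTN, periostin, read 13.83 and 13.93 in Hs578T and 7.68 and 6.90 in MDA-MB231, 96.6-fold higher in Hs578T. The gelatinase gene MMP2 (43.1-fold), the proteoglycan gene LUM (42.5-fold), DCN (5.38 log2, dim in MDA-MB231) and THY1 (39.1-fold), a fibroblast surface protein, followed. Among all genes of the MDA-MB231 arrays, MMP2 lay at percentiles 25.9 and 20.5 and THY1 at 25.1 and 27.8. POSTN lay there at 35.3 and 23.2 and LUM at 35.2 and 18.5. The exact sizes of these folds are therefore uncertain too. In the other direction, MDA-MB231 was higher for the matrix gene TNC (4.73-fold), the receptor genes TGFBR2 (2.7-fold) and TGFBR1 (2.01-fold), SNAI1 (1.84-fold) and NES (1.65-fold). Each of these named differences passed adjusted p under 0.05 in the limma fit.

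**Figure D3:**
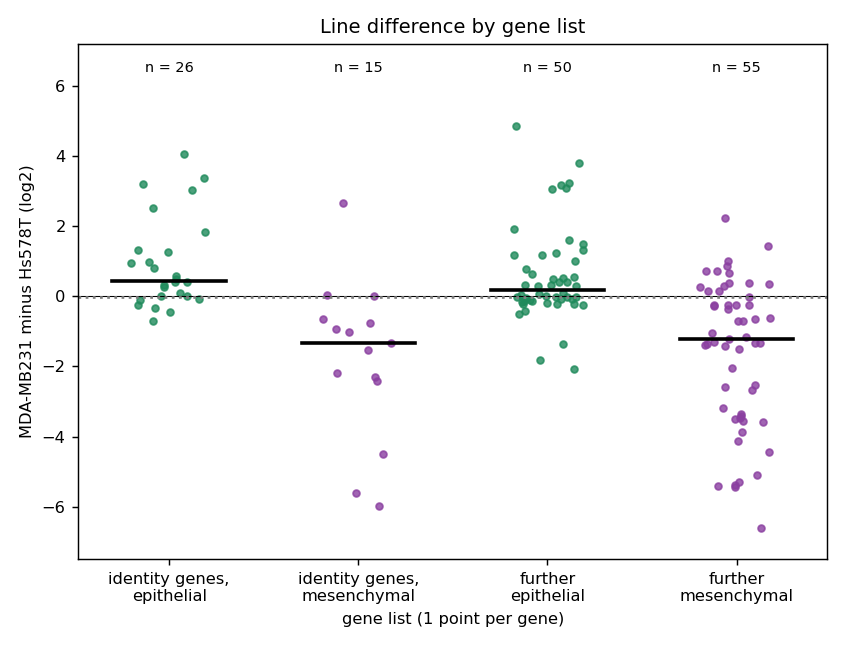
Line difference (MDA-MB231 minus Hs578T, log2, vertical axis) of the epithelial and mesenchymal genes of the main list and of the wider lists, 1 point per gene. Thick bars are medians, at 0.45, −1.34, 0.19 and −1.22 from left to right, and the dotted line is the median over all 18417 genes.

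The second comparison was between FBP1-expressing and control cells within each line. In MDA-MB231, 40 of 41 genes lay within 1.5-fold of control, and the median change was −0.01 log2. The exception was BNC2, at 5.38 in the control and 6.14 with FBP1, 1.69-fold higher; of all genes 0.353% were at least 1.5-fold higher and 0.337% lower. Both values lie under the dim level. BNC2 and CDH6 were among 37 genes dim in the MDA-MB231 control and at least 16-fold higher in the Hs578T control, of which 29 were above control with FBP1 (median change 0.34), beside 1393 of 2580 other dim genes (median 0.02). The part of that pattern in the BNC2 value was not tested, and without such genes 0 of the 41 list members were 1.5-fold higher.

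Below 1.5-fold, genes of both programmes lay on either side of control in MDA-MB231. E-cadherin read 7.64 in the control and 7.90 with FBP1, and N-cadherin 7.38 and 7.70. CLDN1 differed from control by 0.49 log2, CDH6 by 0.43 and CLDN7 by 0.35, while SPDEF differed from control by −0.53, MAL2 by −0.42 and KRT19 by −0.27. From the wider epithelial list the largest changes were in the junction gene LSR (−0.43), the kinase gene MAPK13 (0.43) and CLDN6 (−0.41), a dim claudin. Of the 26 epithelial genes 9 lay above control and 17 below, and of the 15 mesenchymal genes 10 above and 5 below. Over all genes 8954 lay above and 9447 below, which turned to 9715 above and 8681 below after quantile normalization. These counts were not tested.

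In Hs578T, 4 genes were at least 1.5-fold higher with FBP1 and 1 lower, and 36 lay within 1.5-fold. The background was 1.4% of all genes higher and 1.57% lower. MAL2 had the largest difference, from 9.39 to 10.89 or 2.84-fold higher, which left it below both MDA-MB231 arrays. BNC2 went from 9.81 to 10.71 (1.86-fold), CLDN1 from 9.84 to 10.67 (1.78-fold) and KRT14 from 8.85 to 9.62 (1.7-fold). FAP was the 1 gene lower, from 8.01 to 6.67, 2.54-fold. It lay at percentile 41.0 of the control array and 19.5 of the FBP1 array, so the exact size is uncertain. At 2-fold, MAL2 was higher and FAP lower, where 0.271% and 0.424% of all genes were. None of these differences has a replicate. No gene of the list was among 17 genes dim in the Hs578T control and at least 16-fold higher in the MDA-MB231 control, of which 13 were above control with FBP1 (median 0.163), beside 1664 of 2565 other dim genes (median 0.071).

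In Hs578T, 20 of the 26 epithelial genes lay above control and 5 below, and of the 15 mesenchymal genes 9 lay above and 6 below, where 10279 of 18417 genes lay above control. These counts were not tested either. All 5 measured keratins lay above control, by 0.05 to 0.77 log2, and also lay above it after quantile normalization and after median centring. KRT18 differed from control by 0.38 log2, or 0.54 on its second probe set, KRT19 by 0.31 and KRT8 by 0.22. From the wider epithelial list KRT80 went from 7.70 to 8.94 (2.35-fold) and KRT7 from 7.91 to 9.07 (2.23-fold). These are named for being among the 3 largest changes of that list in Hs578T, and not all its keratins are given. KRT15, from the same list, differed from control by 0.29 log2 in Hs578T and 0.09 in MDA-MB231. In MDA-MB231 KRT18 stood at 0.07, KRT8 at −0.08, KRT14 at −0.19, KRT5 at −0.13 beside 0.05 in Hs578T, KRT80 at −0.03, KRT7 at −0.06 and KRT19 at −0.27 log2. The difference between the lines could not be tested with 1 array each.

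Apart from CLDN1, no measured junction gene of the list passed 1.5-fold in Hs578T on the probe set used here. CLDN4 differed from control by 0.52 log2 and CLDN7 by 0.42, whereas EPCAM differed from control by −0.30, or −0.67 on its second probe set, which was dim there; in MDA-MB231 these EPCAM probe sets gave −0.04 and 0.41. E-cadherin differed from control by −0.19, close to the dim level. From the wider list DSC3 went from 8.31 to 7.42. CLDN6 stood at 5.16 and 5.85, both dim.

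Apart from BNC2 and FAP, the mesenchymal regulators and structural genes lay within 1.5-fold of control in both lines. ZEB1 differed from control by 0.17 log2 in MDA-MB231 and 0.15 in Hs578T, VIM by −0.01 and 0.00, FN1 by 0.08 and −0.08, and TWIST1 by 0.14 and −0.04. FOXC2 stood at 0.20 and 0.32. SPARC stood at −0.24 and −0.20 log2 and PDGFRB at 0.06 and −0.30.

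Among the wider mesenchymal genes, LUM went from 7.67 to 6.54 in MDA-MB231, TAGLN, an actin-binding gene of smooth muscle, from 7.79 to 8.81, and the integrin gene ITGB3 from 8.70 to 9.53. In Hs578T the smooth muscle gene CNN1 (0.73 log2), the adhesion gene NCAM1 (0.71) and TNC (0.68) had the largest changes of that list.

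**Figure D4:**
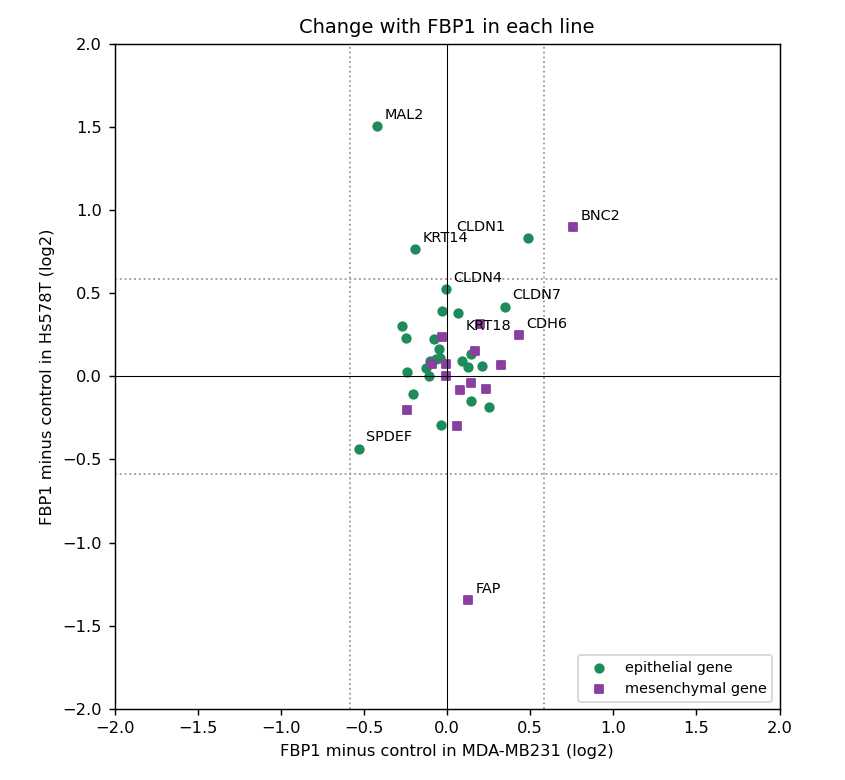
Change with FBP1 (FBP1 minus control, log2) of each of the 41 genes in MDA-MB231 (horizontal axis) and Hs578T (vertical axis), from 1 array per line and construct. Green circles are epithelial and purple squares mesenchymal genes, and dotted lines mark 1.5-fold. Only BNC2 lies past the line in both, MAL2, CLDN1, KRT14 and FAP do so in Hs578T alone, and the other 36 lie inside.

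With the lines taken as the replication of FBP1, limma called 0 of the 41 genes and 0 of 18417, 0.0% of all genes. At unadjusted p under 0.05 there were 7 of 41, namely BNC2, CLDN1, SPDEF, CLDN7, SPARC, CDH6 and FOXC2, beside 5.25% of all genes. The list was drawn up with earlier results of these arrays known, BNC2 and SPDEF among them, so this count supports nothing. BNC2 had a mean change of 0.83 log2 (95% interval 0.57 to 1.09, adjusted p = 0.936) and CLDN1 of 0.66 (0.37 to 0.95, adjusted p = 0.936). For E-cadherin the interval ran from −0.30 to 0.37, for VIM from −0.14 to 0.13 and for ZEB1 from −0.06 to 0.38. FBP1 itself had an adjusted p of 0.936 in this fit, so the absence of calls does not show that the genes did not change.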

How the data were processed

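Total RNA of the 4 cultures was hybridised to Affymetrix arrays, 1 per line and construct. The authors deposited log2 expression values of 33297 probe sets; their range of 2.40 to 14.81 gave the scale. The software was Affymetrix Expression Console 1.1.2800.28061, per the submitters' processing notes; summarization and normalization are not stated in the labels or the file. Near-equal medians point to scaling between arrays, under which total RNA per cell cannot be compared.

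By the platform annotation, 19460 probe sets had 1 gene, 1754 several and 12083 none. The highest-mean probe set per gene left 18417 genes, all fitted, with no intensity filter, by limma 3.58.1 (R 4.3.3) with line and construct as terms, an intensity-trended prior of 5.09 degrees of freedom and Benjamini-Hochberg adjustment over all genes. The cell line pairs each FBP1 array with its control. The difference between the lines' FBP1 changes leaves no residual degree of freedom and was not tested. The line term of the fit was tested on simulated arrays, with equal noise for every gene and known line differences in a small share of genes. The FBP1 term was not tested in this way.

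The members and lists were chosen with earlier results of these data known. Members could all be named; from each wider list, up to 5 called line differences each way and the 3 largest FBP1 changes per line. Alternatives covered the filter, probe set averaging, normalization, centring, the prior, unnamed probe sets, the covariates and the fold threshold.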

Additional observations from a re-analysis of the deposited data

Results flagged for a closer look

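For 3 genes the change with FBP1 had opposite signs in the lines and passed 1.5-fold in Hs578T. MAL2 changed by −0.42 log2 in MDA-MB231 and was 2.84-fold higher in Hs578T, a gap of 1.92 log2 (Hs578T minus MDA-MB231). KRT14 changed by −0.19 and 0.77, a gap of 0.96. FAP changed by 0.13, between dim values, and −1.34, a gap of −1.47. Each rests on 1 array per line and construct, so no gap between the lines was tested.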

How the results depend on the processing

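The counts of genes called between the lines, 16 and 13, moved by less than 1.5 times under each alternative run. The count over all genes did so under the alternatives fitted on genes. With all 33297 probe sets fitted, 22.7% were called between the lines, beside 36.0% of all genes in the main fit. Of 328 tested values of single genes under these alternatives, 322 kept their direction and their side of the threshold. Of 82 untested values from the control arrays or the FBP1 arrays alone, 4 turned sign, those of VIM, OVOL2, KRT5 and KRT18, none of them called. KRT5 turned to −0.015 log2 (adjusted p = 0.925) with arrays centred on their medians, from 0.01. With unnamed probe sets fitted, ESRP2 and MUC1 missed the threshold. PKP3 was called with dim genes left out (adjusted p = 0.0485) and with the line alone as term (0.0391), and KRT14 with dim genes left out (0.049). For FBP1 over both lines, 7 genes at unadjusted p under 0.05 became 1 with no replicate block, that is, without the cell line pairing; calls stayed at 0. No paired analysis by replicate number was possible because each group has 1 array. At 2-fold in place of 1.5-fold, FBP1 left 0 genes higher than control in MDA-MB231, from 1, and 1 in Hs578T, from 4. Leaving out genes dim in MDA-MB231 and abundant in Hs578T, an alternative chosen after seeing the data, gave 0 higher in MDA-MB231. Dim probe sets and the number of arrays limit every size.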
